A study of Mus musculus with 21 samples.

Results

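Transcripts of the aryl hydrocarbon receptor pathway were followed in the epididymal fat pad, a visceral depot of white adipose tissue, of male C57BL/6j mice with and without a microbiota. The 7 genes were chosen by symbol in the exon count table: Ahr, Arnt, Ahrr, Cyp1a1, Cyp1b1, Tiparp and Nqo1. All 7 were present among its 38087 genes, and all 7 were among the 18334 genes that passed the filter on low counts. Mice were 15 to 16 weeks old and fed ad libitum. They were either conventionally raised, with a gut microbiota, or germ-free, raised without microbes, and both arms shared strain, sex and feeding. Tissue was taken at zeitgeber time (ZT, hours after lights on) 2, 6, 10, 14, 18 and 22. The conventional arm had 12 libraries, 2 at each time. The germ-free arm had 9 libraries, 2 at ZT06, ZT10 and ZT22 and 1, numbered replicate 2, at ZT02, ZT14 and ZT18. Nothing in the labels ties each library to its own mouse, and the p-values then reflect only how these libraries vary, which may be partly technical.

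The aryl hydrocarbon receptor is a transcription factor that waits in the cytoplasm with heat shock chaperones until a small molecule binds it. Its ligands include environmental pollutants, kynurenine and other products of tryptophan, and indoles that gut microbes make from tryptophan. The bound receptor enters the nucleus, pairs with ARNT and binds short response elements near its target genes. Cyp1a1 and Cyp1b1, monooxygenases that oxidise many of these ligands, are among its best known targets. Ahrr, a repressor that competes for ARNT, and Tiparp, an enzyme that ADP-ribosylates the receptor, act as feedback inhibitors and are targets too. Nqo1, a quinone reductase, answers both to this receptor and to the oxidative stress factor NRF2.

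Promoter sequence from RefSeq (GRCm38.p6) was at hand for 6 of the 7 genes, all but Ahr. In the 250 bases before the transcription start, the core of the response element, GCGTG, was searched on both strands, where the other strand reads CACGC. The sequences of Cyp1a1 and Cyp1b1 are shown because both transcripts were lower in germ-free fat, and that of Ahrr because it held the most copies. They are written 5′ to 3′ along the gene's own strand, with each copy of the core in capitals.
Cyp1a1 (chr9:57697363-57697612, plus strand): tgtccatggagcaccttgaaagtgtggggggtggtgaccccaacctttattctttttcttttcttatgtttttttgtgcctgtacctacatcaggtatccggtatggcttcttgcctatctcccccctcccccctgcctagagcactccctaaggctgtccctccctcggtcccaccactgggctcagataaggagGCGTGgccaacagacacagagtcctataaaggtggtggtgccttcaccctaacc
Cyp1b1 (chr17:79715062-79715311, minus strand): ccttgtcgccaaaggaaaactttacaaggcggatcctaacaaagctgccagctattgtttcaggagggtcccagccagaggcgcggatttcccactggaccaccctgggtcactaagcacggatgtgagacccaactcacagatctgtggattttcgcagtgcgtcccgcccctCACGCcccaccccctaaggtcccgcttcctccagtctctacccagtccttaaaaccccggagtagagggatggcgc
Ahrr (chr13:74292332-74292581, minus strand): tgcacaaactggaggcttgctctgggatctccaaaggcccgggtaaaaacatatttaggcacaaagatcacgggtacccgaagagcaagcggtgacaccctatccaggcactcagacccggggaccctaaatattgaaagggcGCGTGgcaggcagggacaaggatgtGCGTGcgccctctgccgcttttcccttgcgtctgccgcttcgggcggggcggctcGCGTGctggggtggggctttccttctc

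The Cyp1a1 window held 1 copy, whose first base lay 54 bases before the start. Cyp1b1 held 1 copy at 76 bases, on the opposite strand. Ahrr held 3 copies, at 107, 82 and 27 bases. Arnt held 1 copy at 29 bases and Tiparp 1 at 170 bases, the latter on the opposite strand, whereas Nqo1 held 0. Among 32851 promoter windows of this length, 28.2% held at least 1 copy and 2.77% held at least 3. A match describes the letters only, and longer-range elements such as distal enhancers lie outside these windows.

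In the GENCODE M21 annotation of GRCm38, all 7 genes are protein-coding. Ahr lies at chr12:35497974-35535038 on the minus strand, Arnt at chr3:95434388-95497240 on the plus strand and Ahrr at chr13:74211118-74292331 on the minus strand. Cyp1a1 lies at chr9:57687928-57703824 on the plus strand, with an annotated gene start further upstream than the RefSeq start used for its promoter. Cyp1b1 lies at chr17:79701537-79715061 on the minus strand, Tiparp at chr3:65528410-65555518 on the plus strand and Nqo1 at chr8:107388225-107403206 on the minus strand. Ahr and Tiparp each overlap a gene on the other strand (Gm48236 and 4931440P22Rik), and Arnt overlaps Gm42672 on its own strand. The strand setting of the counting is not given in the sources used here, so reads in these overlaps could be counted for either gene.

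Total counts per library ranged from 24388294 to 37097857 in the conventional and from 28900903 to 48348181 in the germ-free arm. The adipocyte hormone Adipoq averaged 3056 and 2972 CPM (counts scaled to a common library size, TMM-adjusted) in the conventional and germ-free arms, so the defining adipocyte transcript was abundant in both. RNA of neighbouring tissue was uneven: in 3 conventional and 4 germ-free libraries the summed markers of ciliated duct cells, of epididymis and testis or of male accessory glands exceeded 5 times their median over libraries. Conventional ZT18 replicate 1 and germ-free ZT14 replicate 2 exceeded it only by accessory gland sums of 4.01 and 3.81 CPM. Conventional ZT10 replicate 2 had 1520 CPM. Without the 7 libraries no germ-free library was left at ZT14 or ZT22, and fewer libraries and less such RNA cannot be told apart. Libraries also differed in a trend of expression with exon length across genes. Its rank correlation was -0.06 to 0.27 (median 0.14) in the conventional and -0.33 to 0.20 (median -0.19) in the germ-free libraries. Where leaving out the 7 libraries changed a call of the pathway genes or an all-day result of the related gene lists, this is given below. The length trend was a covariate only in the all-day comparison of the arms, and its changes are given there. The trend itself differed between the arms. In calls lost with this covariate, a length effect and the lower precision from that overlap cannot be told apart. Single times, the interaction and rhythms were not refitted with the length trend. The marker calls and the rhythms of related genes were refitted with neither alternative. Both alternatives were chosen after seeing the data.

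Per kilobase of exon, the 7 transcripts covered a wide range of levels in the plot of levels per length. In conventional fat Tiparp stood highest at 24.1 ± 4.21 CPM per kb (mean ± SD, n = 12), followed by Cyp1b1 at 17.7 ± 3.80 and Arnt at 12.1 ± 1.77. Nqo1 followed at 4.35 ± 0.530 CPM per kb and Ahr, the receptor itself, at 3.18 ± 0.451. Cyp1a1 at 0.350 ± 0.205 and Ahrr at 0.0807 ± 0.0205 CPM per kb were far lower. The libraries' values overlapped between Tiparp and Cyp1b1, Cyp1b1 and Arnt, Nqo1 and Ahr, and Cyp1a1 and Ahrr, while Arnt lay above Nqo1 and Ahr above Cyp1a1 in every conventional library. In germ-free fat the levels were 21.5 ± 3.28 for Tiparp, 13.99 ± 1.83 for Cyp1b1, 11.5 ± 1.68 for Arnt, 4.91 ± 0.652 for Nqo1 and 3.70 ± 0.522 CPM per kb for Ahr (n = 9). Cyp1a1, at 0.0752 ± 0.0738, stood at the level of Ahrr, at 0.0767 ± 0.0307 CPM per kb.

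**Figure D1:**
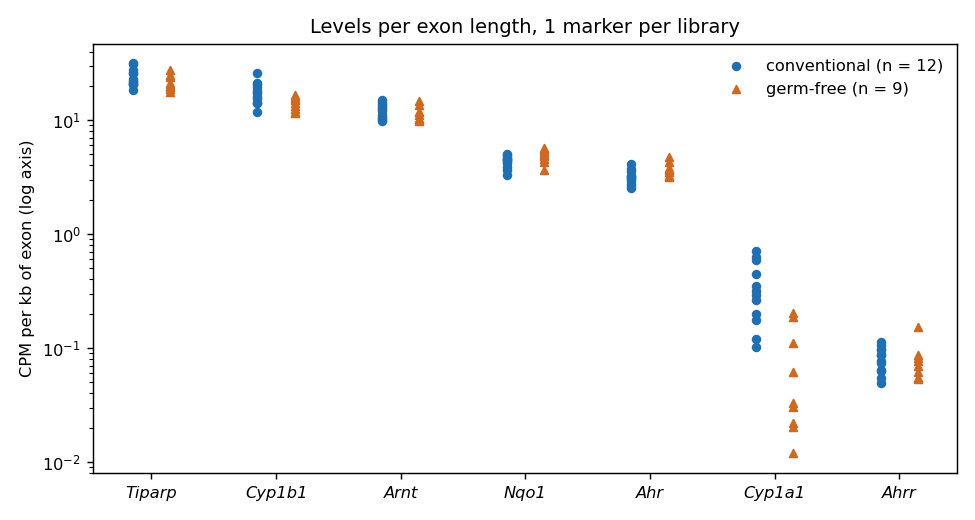
Level of each pathway transcript in CPM per kilobase of exon (log axis), 1 marker per library, for 12 conventional (circles) and 9 germ-free (triangles) libraries. Tiparp, Cyp1b1 and Arnt stand highest in both arms; Cyp1a1 averaged 0.350 CPM per kb in the conventional and 0.0752 in the germ-free libraries.

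The first comparison asked which pathway genes differed between the arms over the whole day. Cyp1a1 and Cyp1b1 were lower in germ-free fat and Ahr was higher, while Arnt, Ahrr, Tiparp and Nqo1 did not pass the test. The counts were compared with edgeR's quasi-likelihood test with time as a factor, at a Benjamini-Hochberg adjusted p of 0.05 over all genes kept. Of the 7 genes, 1 was called higher and 2 lower. Over all genes tested, 15.3% were called higher and 11.6% lower, and the pathway counts are read against these shares. The median log2 fold change, germ-free over conventional, was -0.12 over the 7 genes and 0.03 over all genes.

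Of the 7 genes, Cyp1a1 had the lowest germ-free counts and the greatest difference. Conventional replicates 1 and 2 gave 28 and 16 counts at ZT02, 31 and 51 at ZT06, 8 and 27 at ZT10, 16 and 33 at ZT14, 42 and 9 at ZT18, and 41 and 29 at ZT22. Germ-free libraries gave 2 counts at ZT02, 3 and 6 at ZT06, 20 and 2 at ZT10, 8 at ZT14, 3 at ZT18, and 1 and 22 at ZT22. In total 331 counts were seen in 12 conventional and 67 in 9 germ-free libraries. Scaled to depth, conventional libraries ran from 0.266 to 1.87 CPM and germ-free libraries from 0.0311 to 0.530 CPM. The arms overlapped: 8 of 12 conventional libraries lay above every germ-free library, and 6 of 9 germ-free libraries lay below every conventional one. The germ-free libraries at ZT10 replicate 1 and ZT22 replicate 2 were the highest of their arm and reached the lower conventional values.

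Mean Cyp1a1 was 0.918 ± 0.537 CPM in conventional (SD, n = 12) and 0.197 ± 0.193 CPM in germ-free fat (SD, n = 9). The log2 fold change was -2.24 ± 0.52 (SE), or 4.73-fold lower (edgeR adjusted p = 0.00521). The call held without any 1 of the 21 libraries, with log2 fold changes from -2.72 to -2.07 and adjusted p up to 0.0176. It did not hold without the 7 libraries high in neighbouring tissue markers (-1.99, adjusted p = 0.152), with the length trend as a covariate (-2.93, adjusted p = 0.139), or at the 3 times having both replicates in both arms (-2.02, adjusted p = 0.0719). The estimate was negative in each of these fits.

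Cyp1b1, the other monooxygenase, was among the abundant members and changed less. It ranged from 61.1 to 132 CPM in conventional libraries (median 89.8) and from 58.7 to 84.5 CPM in germ-free libraries (median 73.1). The arms overlapped, with 7 of 12 conventional libraries above every germ-free one. Means were 90.7 ± 19.5 CPM (SD, n = 12) and 71.7 ± 9.38 CPM (SD, n = 9), a log2 fold change of -0.35 ± 0.11 or 1.27-fold lower (edgeR adjusted p = 0.0260). Leaving out germ-free ZT22 replicate 2 ended the call (-0.30, adjusted p = 0.0536), as did leaving out the 7 libraries high in neighbouring tissue markers (-0.26, adjusted p = 0.244) and the length covariate (-0.35, adjusted p = 0.342).

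Ahr itself moved the other way by a small amount. Conventional libraries ranged from 15.6 to 25.2 CPM (median 19.4) and germ-free libraries from 19.7 to 29.2 CPM (median 22.3). The ranges overlapped widely, with 6 of 12 conventional libraries below every germ-free one and 2 of 9 germ-free libraries above every conventional one. Means were 19.6 ± 2.78 and 22.8 ± 3.22 CPM (SD, n = 12 and n = 9), a log2 fold change of 0.18 ± 0.06 or 1.13-fold higher (edgeR adjusted p = 0.0310). This call rested on many libraries: it was lost, with adjusted p of 0.0513 to 0.118, without any 1 of 5 conventional libraries (ZT06, ZT18 or ZT22 replicate 1, ZT10 or ZT18 replicate 2) or 6 germ-free libraries (ZT02, ZT06, ZT10, ZT14, ZT18 or ZT22 replicate 2). It was also lost with no filter on low counts (adjusted p = 0.0724), with the replicate block (0.0549), without the 7 libraries (0.230), with the length covariate (0.151) and when only times having both replicates in both arms were used (0.320). The log2 fold change lay between 0.14 and 0.27 in all of these.

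Arnt, the partner that the receptor needs to bind DNA, had a conventional mean of 97.3 ± 14.2 CPM and a germ-free mean of 92.3 ± 13.4 CPM (log2 fold change -0.06 ± 0.05, adjusted p = 0.413). Its ranges, 78.9 to 121 and 78.3 to 117 CPM, nearly coincided.

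The feedback inhibitors did not pass the test either. Ahrr gave 13 to 37 counts per conventional and 14 to 53 per germ-free library, with means of 0.752 ± 0.191 and 0.715 ± 0.286 CPM (log2 fold change -0.12 ± 0.16, adjusted p = 0.746). Small differences are not detectable at such counts. Tiparp, whose conventional libraries ran from 86.3 to 147 CPM and germ-free libraries from 82.9 to 128 CPM, averaged 112 ± 19.6 and 100.3 ± 15.3 CPM (-0.17 ± 0.09, adjusted p = 0.208). Nqo1 had a conventional mean of 6.75 ± 0.824 CPM and a germ-free mean of 7.62 ± 1.01 CPM, a log2 fold change of 0.14 ± 0.07 (adjusted p = 0.168). Of its 9 germ-free libraries, 4 lay above every conventional one, and the 2 lowest of the 12 conventional libraries lay below every germ-free one.

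**Figure D2:**
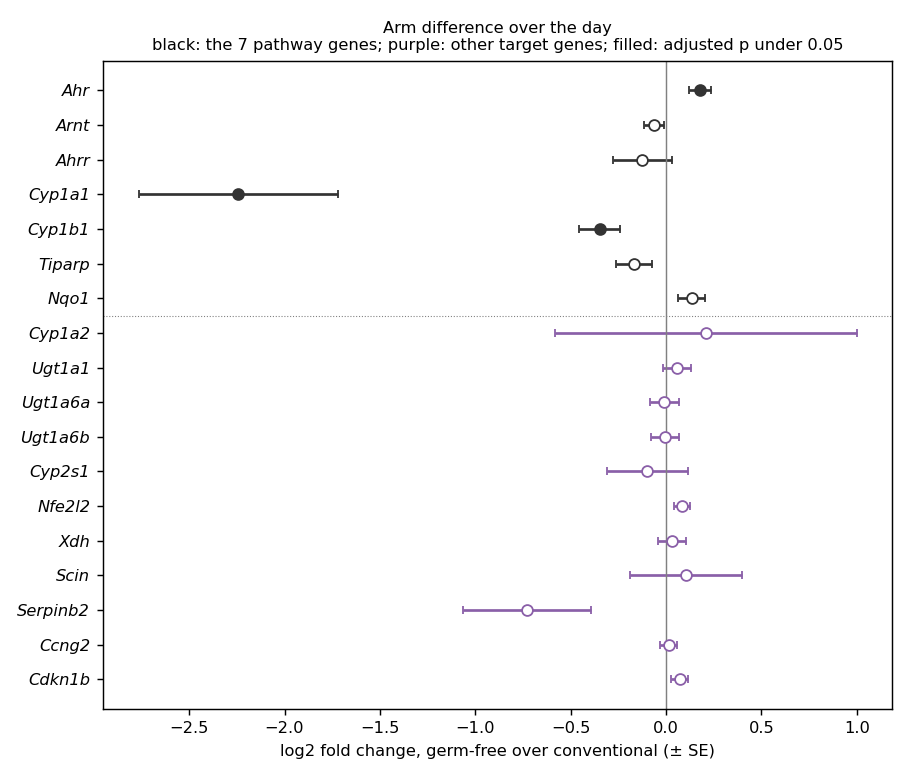
Log2 fold change over the day, germ-free over conventional, with its SE, for the 7 pathway genes (black) and 11 other listed target genes (purple), from edgeR. Filled points have an adjusted p under 0.05. Cyp1a1 (-2.24) and Cyp1b1 (-0.35) lie to the left and Ahr (0.18) to the right, and none of the purple points is filled.

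Cell makeup was read from marker lists, beside the 15.3% of all genes called higher and 11.6% called lower in germ-free fat. In bulk tissue, fewer cells of a type and less RNA per cell cannot be told apart. Of 6 endothelial markers, 3 were higher in germ-free fat, and their summed level ranged from 510.5 to 823 CPM across conventional and from 606 to 890 CPM across germ-free libraries. Of 8 progenitor and fibroblast markers 2 were lower, of 6 mesothelial markers 1 was lower, of 6 adipocyte markers 1 was higher, and 0 of 5 measured macrophage markers passed. Summed progenitor markers ranged from 1774 to 2756 CPM and from 2087 to 2850 CPM, in the same order of arms. Summed macrophage markers ranged from 541 to 786 CPM and from 507 to 875 CPM. None of the listed markers was at 0 in every library. The part of cell makeup in the Cyp1a1, Cyp1b1 and Ahr differences was not tested. Of 8 hepatocyte markers 0 passed in edgeR, and their log2 fold changes lay between -0.35 ± 0.65 (Apoa1) and 0.54 ± 0.60 (Alb). Their summed level, most of which was Cyp2e1, a gene that fat also expresses, had a median of 4588 CPM (2828 to 5749) in the conventional arm and 3634 CPM (2730 to 7418) in the germ-free arm. The part of liver RNA in the Cyp1a1 difference was not tested.

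The difference between the arms was then tested at each time of day, in 1 fit of the 12 groups that takes the spread of single-library groups from the rest. Among the 7 genes and 6 times, 1 difference passed, that of Cyp1b1 at ZT22. Over all genes, edgeR called 0.0327% at ZT02, 0.0382% at ZT06, 0.207% at ZT10, 0% at ZT14, 0.153% at ZT18 and 5.2% at ZT22. At ZT14 this was 0 genes, against 2474 at an unadjusted p under 0.05 and 208 with DESeq2. The one pathway call thus fell at the time with the highest share of called genes.

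At ZT22, Cyp1b1 stood at 132 and 106 CPM in the conventional and at 68.1 and 58.7 CPM in the germ-free libraries. The groups did not overlap, and the log2 fold change was -0.91 ± 0.17 or 1.88-fold lower (edgeR adjusted p = 0.0160). The call was lost without conventional ZT22 replicate 1 (-0.75, adjusted p = 0.0951), conventional ZT22 replicate 2 (-1.05, adjusted p = 0.0759) or germ-free ZT22 replicate 2 (-0.85, adjusted p = 0.0721). Both germ-free ZT22 libraries and conventional ZT22 replicate 1 were among the 7 libraries high in neighbouring tissue markers. Their summed epididymis and testis markers stood at 131.5 and 391 CPM (germ-free replicates 1 and 2) and 98.4 CPM. In conventional ZT22 replicate 2 the sum was 0.113 CPM. The part of such RNA in the Cyp1b1 difference was not tested. Without the 7 libraries no germ-free library was left at ZT22, and no value could be given.

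At the other times Cyp1b1 gave log2 fold changes of -0.46 ± 0.21 at ZT02, -0.47 ± 0.17 at ZT06, -0.24 ± 0.17 at ZT10, 0.01 ± 0.21 at ZT14 and 0.21 ± 0.21 at ZT18, none of which passed. Germ-free libraries, only 1 at ZT02, lay below both conventional ones at ZT02, ZT06 and ZT22. At ZT18 the single germ-free library, at 77.0 CPM, lay above both conventional ones, at 61.1 and 71.9 CPM.

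Cyp1a1 was lower in the germ-free mean at 6 of 6 times. At 5 of 6 every germ-free library lay below both conventional ones, the exception being ZT10. At ZT02, ZT14 and ZT18 there was only 1 germ-free library, which is easily separated from 2 conventional ones. No share over all genes stands beside this count. The Cyp1a1 log2 fold changes were -3.43 ± 1.76 at ZT02, -3.34 ± 1.17 at ZT06, -0.70 ± 1.09 at ZT10, -1.53 ± 1.42 at ZT14, -3.71 ± 1.66 at ZT18 and -2.10 ± 1.06 at ZT22. None passed, the lowest adjusted p being 0.219 at ZT18. With 1 to 51 counts per library, single times are weakly determined.

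Ahr was higher in the germ-free mean at 6 of 6 times and higher in every germ-free library at 4 of them. These were ZT06, with 2 germ-free libraries, and ZT02, ZT14 and ZT18, with 1 each. Genes not called over the day also separated at several times. Nqo1 lay above at 3 and below at 1, Ahrr above at 1 and below at 3. Arnt and Tiparp each lay above at 2 and below at 2. No share over all genes stands beside these counts, and they are descriptions only. The Ahr log2 fold changes lay between 0.13 at ZT06 and 0.27 at ZT18, with SEs of 0.15 to 0.18, and no single time passed.

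Tiparp shared the negative sign of Cyp1b1 at ZT02, ZT06 and ZT22, with log2 fold changes of -0.40 ± 0.20, -0.56 ± 0.16 and -0.31 ± 0.16. It gave 0.02 ± 0.16 at ZT10, where Cyp1b1 was negative, 0.27 ± 0.20 at ZT14 and 0.11 ± 0.20 at ZT18. No Tiparp time passed in edgeR with all libraries. At ZT06 its conventional libraries stood at 127 and 147 CPM and its germ-free libraries at 91.5 and 94.0 CPM, without overlap. This missed the threshold in edgeR (adjusted p = 0.198) and passed it in DESeq2 (-0.56, adjusted p = 0.0350). At ZT22 the germ-free libraries disagreed, at 128 and 86.9 CPM, against 144 and 122 CPM in the conventional ones. Without germ-free ZT22 replicate 1 the difference there was -0.60 (edgeR adjusted p = 0.0278).

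Nqo1 differed most at ZT18, with 5.08 and 5.62 CPM in the conventional libraries and 7.64 CPM in the single germ-free one (log2 fold change 0.51 ± 0.16, adjusted p = 0.111). The largest value for Ahrr was 0.64 ± 0.40 at ZT02 and for Arnt -0.21 ± 0.14 at ZT18, and neither passed (adjusted p = 0.442 and 0.402).

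**Figure D3:**
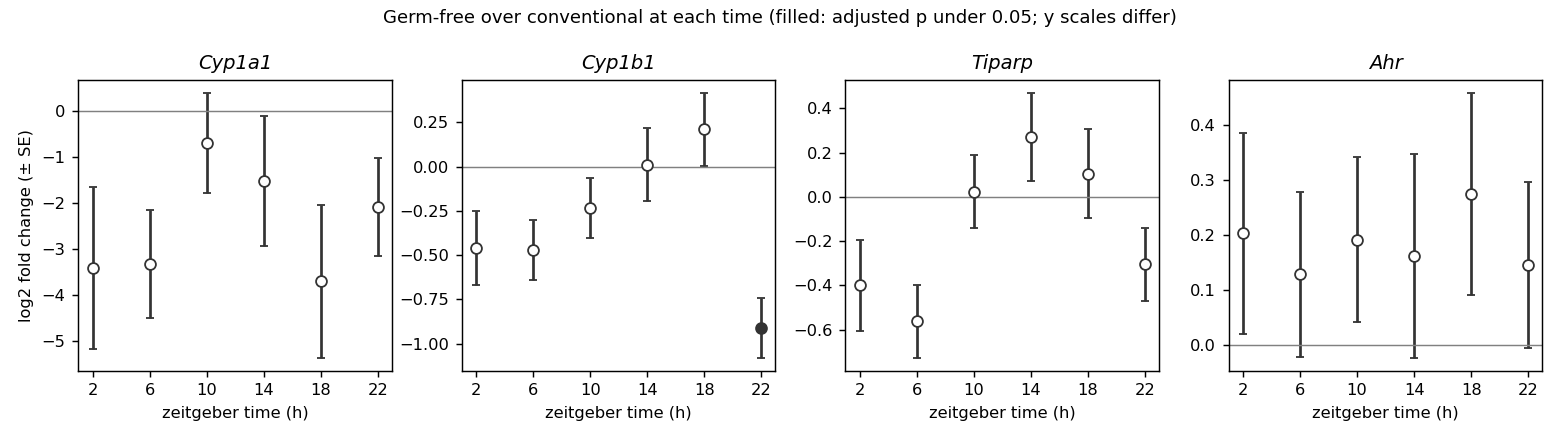
Log2 fold change at each zeitgeber time, germ-free over conventional, with its SE, for Cyp1a1, Cyp1b1, Tiparp and Ahr, each on its own y scale. The only filled point (adjusted p under 0.05) is Cyp1b1 at ZT22, at -0.91; the Cyp1a1 points all lie below 0 and the Ahr points all above it.

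Whether the arm difference changed over the day was tested by the arm-by-time interaction over 5 degrees of freedom. None of the 7 genes passed in edgeR, where 0% of all genes were called, 0 at the adjusted threshold against 2266 at an unadjusted p under 0.05. The smallest p among the pathway genes were those of Cyp1b1 (0.0142, adjusted p = 0.311) and Tiparp (0.0471, adjusted p = 0.401). DESeq2 called 984 genes and, of the pathway, Cyp1b1 (adjusted p = 0.0171), and gave Cyp1a1 no adjusted p. The Cyp1b1 difference at ZT22 is therefore not shown to differ from other times by the main test.

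Rhythms were fitted as a 24 h curve in each arm. Arnt was the 1 pathway gene called rhythmic, in both arms, against 0.813% of all genes in conventional and 4.64% in germ-free fat. In conventional libraries its replicates 1 and 2 stood at 78.9 and 80.6 CPM at ZT02, 84.5 and 83.5 at ZT06, 106 and 111 at ZT10, 115 and 101 at ZT14, 121 and 96.8 at ZT18, and 88.9 and 99.7 CPM at ZT22. In germ-free libraries it stood at 82.8 CPM at ZT02, 78.3 and 89.2 at ZT06, 94.6 and 109.7 at ZT10, 117 at ZT14, 94.2 at ZT18, and 82.2 and 81.9 CPM at ZT22. Levels were thus low in the first hours of light and high from late light into the first part of the dark, in both arms.

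The fitted Arnt amplitude, the height of the curve above its mean, was 0.25 on the log2 scale with a peak at ZT14.8 in conventional fat (1.41-fold peak to trough, edgeR adjusted p = 0.0320). In germ-free fat it was 0.26 with a peak at ZT13.5 (1.43-fold, adjusted p = 0.0301). The conventional call was lost without any 1 of 9 conventional libraries, namely replicate 1 at any of the 6 times or replicate 2 at ZT02, ZT06 or ZT10, with adjusted p of 0.0518 to 0.116. The germ-free call was lost without germ-free ZT10 replicate 2 (0.0784) or ZT14 replicate 2 (0.1497) and with no filter on low counts (0.0534). Without the 7 libraries neither arm passed (adjusted p = 0.172 and 0.282). Neither arm passed when any difference between the 6 times was tested in place of a curve (edgeR adjusted p = 0.112 and 0.141). DESeq2 gave adjusted p of 0.000200 and 0.00173.

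The other 6 genes did not pass in either arm. Ahrr had a fitted germ-free amplitude of 0.59 and a peak at ZT3.27 (adjusted p = 0.122), which was 0.33 without germ-free ZT02 replicate 2, beside 0.37 and ZT2.53 in conventional fat (adjusted p = 0.384). Ahr reached amplitudes of 0.21 and 0.17 with peaks at ZT6.62 and ZT6.99 in conventional and germ-free fat (adjusted p = 0.207 and 0.252). Cyp1b1 had amplitudes of 0.24 and 0.15 (adjusted p = 0.394 and 0.655), Tiparp 0.22 and 0.21 (0.330 and 0.344), and Nqo1 0.19 and 0.10 (0.374 and 0.675). For Cyp1a1 the fitted amplitudes, 0.27 and 0.59, had adjusted p of 0.927 and 0.826, and each library left out moved the germ-free one between 0.29 and 1.61.

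A difference of rhythm between the arms was tested over 2 degrees of freedom. None of the 7 genes passed, and 0% of all genes did in edgeR, 0 against 1415 at an unadjusted p under 0.05, while DESeq2 called 48 genes and 0 of the 5 pathway genes to which it gave an adjusted p, Ahrr and Cyp1a1 having none. Tiparp had the smallest p of the pathway (0.0234, adjusted p = 0.607). Its fitted peaks lay at ZT1.51 in conventional and ZT16.8 in germ-free fat, and those of Cyp1b1 at ZT2.52 and ZT12.3, but neither gene was called rhythmic in either arm.

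**Figure D4:**
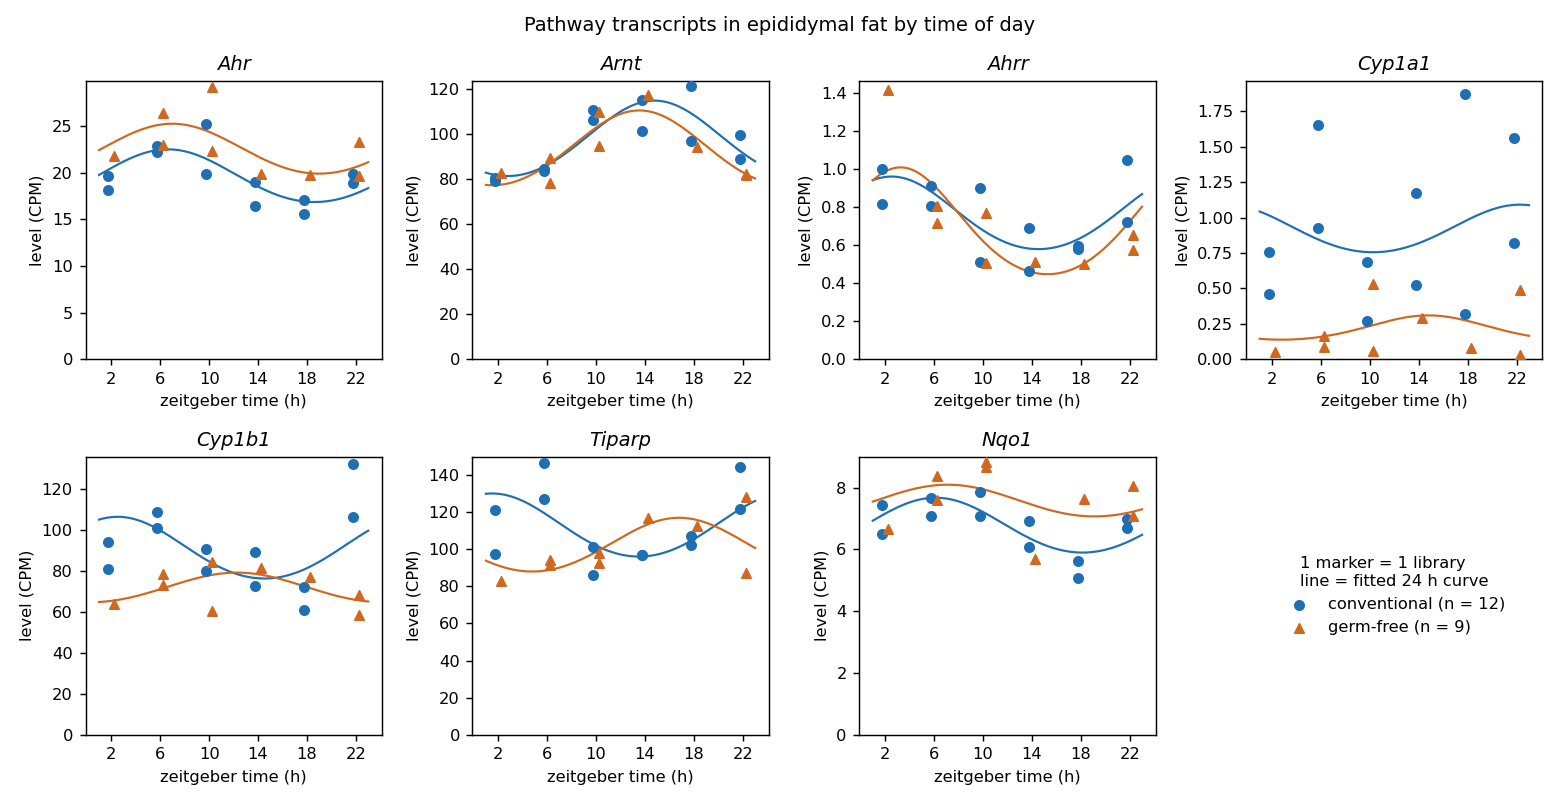
Level in CPM of each pathway transcript by zeitgeber time, 1 marker per library, for 12 conventional (circles) and 9 germ-free (triangles) libraries, with the fitted 24 h curve of each arm. Arnt follows a similar curve in both arms, with peaks at ZT14.8 and ZT13.5. The germ-free Cyp1a1 libraries, 1 each at ZT02, ZT14 and ZT18, lie below the conventional ones at 5 of 6 times, the exception being ZT10.

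Related genes were read from lists, whose counts are read against the 15.3% of all genes called higher and 11.6% called lower. Of 14 genes of the receptor complex and its coactivators, 1 was higher, 7 were lower and 6 did not pass, with a median log2 fold change of -0.14. The acetyltransferases Ep300 (-0.63 ± 0.10, adjusted p = 0.000704) and Crebbp (-0.62 ± 0.10, adjusted p = 0.000704) and the coactivator Ncoa3 (-0.31 ± 0.05, adjusted p = 0.000907) were lower in germ-free fat. Ptges3, a co-chaperone of the receptor (0.07 ± 0.05, adjusted p = 0.323), did not pass. The count of 8 fell to 5 without germ-free ZT18 replicate 2, to 3 at the times having both replicates in both arms, to 2 without the 7 libraries and to 0 with the length covariate.

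Of 10 relatives of AHR and ARNT in the bHLH-PAS family, 0 were higher, 1 was lower and 9 did not pass, with a median of -0.08. Hif3a, a hypoxia factor subunit, was lower (-0.83 ± 0.20, adjusted p = 0.00561), though not with the length covariate (-0.42, adjusted p = 0.496). Hif1a (0.08 ± 0.04, adjusted p = 0.129) and Epas1 (-0.22 ± 0.12, adjusted p = 0.186), the other hypoxia factors that pair with ARNT, did not pass. In this list 3 genes were rhythmic in conventional fat, the clock factors Arntl, Clock and Npas2, and in germ-free fat these and Hif3a, which are named after their values were seen. Arntl had amplitudes of 1.58 and 2.54 and Clock of 0.41 and 0.49, in conventional and germ-free fat, above the 0.25 and 0.26 of Arnt.

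Of 14 other receptor targets listed, 11 passed the filter on low counts and 0 were called in edgeR, and Aldh3a1, Gsta1 and Fgf21 were not kept. The median log2 fold change was 0.03, as over all genes. Serpinb2, a plasminogen activator inhibitor, was the 1 gene of these with an unadjusted p under 0.05 in edgeR (-0.73 ± 0.34, adjusted p = 0.121). Nfe2l2, which encodes NRF2, gave 0.08 ± 0.04 (adjusted p = 0.149). Cyp1a2, the third member of its family, gave 0.21 ± 0.79 (adjusted p = 0.888) with a conventional mean of 0.529 CPM and a germ-free mean of 0.476 CPM. Ugt1a1, Ugt1a6a and Ugt1a6b share exons, and their values are uncertain. The lower levels of Cyp1a1 and Cyp1b1 thus had no counterpart past the threshold among these targets, nor in Tiparp, Ahrr or Nqo1, and a difference between them and these genes was not tested.

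Of 17 symbols for tryptophan and kynurenine handling, 15 were in the table and 12 were kept. Kyat1 and Kyat3 were not in the table, and these genes were listed there by their older symbols Ccbl1 and Ccbl2. Of the 12 kept, 2 were higher, 1 was lower and 9 did not pass (median 0.02). Slc7a8, an amino acid transporter that carries tryptophan among others, was lower (-1.14 ± 0.13, adjusted p = 8.50e-05), from 21.6 ± 4.58 to 9.98 ± 3.13 CPM. The kynurenine aminotransferases Ccbl2 (0.31 ± 0.06, adjusted p = 0.00165) and Ccbl1 (0.28 ± 0.10, adjusted p = 0.0360) were higher. Tdo2, which opens the tryptophan ring (-0.64 ± 0.28, adjusted p = 0.105), and Kynu, kynureninase (0.33 ± 0.39, adjusted p = 0.587), did not pass. The Ccbl1 call was lost, with adjusted p of 0.0511 to 0.106, without any 1 of 6 conventional libraries (ZT10, ZT14 or ZT22 replicate 1, ZT10, ZT18 or ZT22 replicate 2) or 5 germ-free libraries (ZT10 or ZT22 replicate 1, ZT14, ZT18 or ZT22 replicate 2). Tdo2 passed without germ-free ZT14 replicate 2 (adjusted p = 0.0180). Slc7a8 alone was called in each of 3 alternatives, namely the times having both replicates in both arms, the fit without the 7 libraries and the length covariate.

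Of 12 NRF2 targets, 3 were higher, 0 lower and 9 did not pass, with a median of 0.02. Gsr, glutathione reductase (0.18 ± 0.03, adjusted p = 0.000489), Keap1, the inhibitor of NRF2 (0.17 ± 0.04, adjusted p = 0.00651), and Gclc, which makes the precursor of glutathione (0.23 ± 0.06, adjusted p = 0.00823), were higher. Gclm (0.18 ± 0.07, adjusted p = 0.0577) and Hmox1 (-0.25 ± 0.14, adjusted p = 0.198) did not pass. Keap1 was lost without germ-free ZT18 replicate 2 (adjusted p = 0.0525), and Gsr was the 1 gene called without the 7 libraries, with the length covariate and at the times having both replicates in both arms. Gclm passed without conventional ZT02 replicate 2, germ-free ZT06 replicate 1 or germ-free ZT02 replicate 2 (adjusted p of 0.00729 to 0.0466).

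Tiparp also answers quickly to many stimuli, so immediate early genes were listed too. Of 10, 0 were higher, 5 were lower and 5 did not pass, with a median of -0.43. Fos (-1.06 ± 0.21, adjusted p = 0.00196), Egr1 (-0.94 ± 0.18, adjusted p = 0.00150) and Zfp36 (-0.63 ± 0.13, adjusted p = 0.00200) were lower. Junb (-0.29 ± 0.11, adjusted p = 0.0634) and Atf3 (-0.37 ± 0.20, adjusted p = 0.173) did not pass, although Junb passed in DESeq2 (adjusted p = 0.0386) and, with adjusted p of 0.0144 to 0.0386, without conventional ZT02 replicate 1, conventional ZT06 replicate 2, germ-free ZT02 replicate 2 or germ-free ZT06 replicate 2. The count fell to 0 without the 7 libraries and with the length covariate, where Fos gave -0.71 and -0.95, Egr1 -0.80 and -0.94, and Zfp36 -0.48 and -0.36, in that order of settings.

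Likeness to each pathway gene was described by Pearson's r of log2 CPM over the 21 libraries. It was sought among 12137 genes whose log2 CPM averaged 1 or more, leaving out placeholder gene models such as Gm and Rik symbols. These libraries share arm and time, and r is across both. Arnt was most like Pdk2 (r = 0.93), a pyruvate dehydrogenase kinase, Lifr (0.91) and Ppm1b (0.90). Cyp1b1 was most like Bmper (0.82), Col6a5 (0.81) and Phactr1 (0.81), and Cyp1a1 like Fam160b2 (0.81), Sfi1 (0.78) and D16H22S680E (0.76). Ahr was most like Dusp4 (0.84), Nmnat3 (0.82) and Smurf1 (0.80), and Nqo1 like Cwc27 (0.85), Hgf (0.82) and Mef2c (0.81). Tiparp was most like the growth factors Angpt1 (0.80) and Igf1 (0.78) and then Cradd (0.72), and Ahrr like Mmp9 (0.80), Klhl13 (0.79) and Scpep1 (0.78). No pathway gene was among the 3 genes most like another, but Cyp1a1 and Ahrr lay below the bound on log2 CPM and could not be named.

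Among the 7 genes themselves, the highest r over all libraries were those of Ahr with Nqo1 (0.65) and of Cyp1b1 with Tiparp (0.62). Within arms, Ahr and Nqo1 gave 0.56 in conventional and 0.57 in germ-free libraries, and Cyp1b1 and Tiparp gave 0.66 and 0.31. Cyp1a1 and Cyp1b1, both lower in germ-free fat, gave 0.42 over all libraries, 0.29 within the conventional arm and -0.42 within the germ-free arm. Arnt and Cyp1b1 gave -0.57 in conventional and 0.62 in germ-free libraries. These values are descriptions over 12 and 9 libraries that share depth scaling and times.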

How the data were processed

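Total RNA of epididymal white fat was sequenced in 21 libraries, from stranded, ribosome-depleted paired-end preparations per the labels' protocols. The authors deposited raw read counts over exons per gene with an exon length, per the file headers. The submitters' processing notes name STAR 2.4.0i and mm10. How reads were counted (program, strand, multiple mapping, gene models) is not given in the sources used here, so reads of near-identical or overlapping genes are uncertain.

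From the deposited counts, genes were kept with filterByExpr and scaled with TMM factors in edgeR 4.0.16 (R 4.3.3). All fits used all 21 libraries and edgeR's quasi-likelihood F test: arm with time as a factor, 12 arm-and-time groups, and a 24 h cosine and sine per arm. P-values were adjusted by Benjamini-Hochberg over all 18334 genes kept, at 0.05. The SE is the fold change divided by the root of F. The low-count bound of edgeR makes the p of Ahrr larger than its SE implies. Log2 CPM for correlations used a prior count of 2. Levels are CPM over TMM-scaled library sizes. The arm and rhythm tests were checked on simulated counts with the same spread for every gene and no length trend or neighbouring tissue. Simulated effects were larger than those of Ahr, Cyp1b1 and Arnt, and were given only to genes more abundant than Cyp1a1. The check therefore does not cover these calls, and the single-time and interaction tests were not scored.

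Alternatives were DESeq2 1.42.0 and its size factors in edgeR (RLE), no filter, the replicate block, the 3 times having both replicates in both arms, any difference between times in place of a curve, and each library left out. Positions came from GENCODE M21, matched by gene identifier for 36308 of 38087 genes, and promoters from RefSeq. Plots used Python 3.11.15 and matplotlib 3.10.9.

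The pathway genes and the lists were chosen with earlier results of these data known. Besides the 7 genes, each list gave up to 3 called genes and up to 2 uncalled genes, those of lowest p between arms, and each pathway gene the 3 genes most like it. Cyp1a2, the clock factors and the named cell markers are given outside this rule. A further gene that this rule would name is not reported here.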

Additional observations from a re-analysis of the deposited data

Results flagged for a closer look

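Ahrr stood at 1.41 CPM, or 53 counts, in germ-free ZT02 replicate 2, apart from the other 8 germ-free libraries, which ranged from 0.499 to 0.803 CPM. Its gap to the next library was 0.667 of the range of the arm, above Dixon's 95% critical value for 9 samples. It is the single germ-free library at ZT02, so the level at that time has no replicate. The highest conventional library stood at 1.05 CPM. All 7 pathway genes were checked in the germ-free arm, and chance flags about 1 in 20 groups. The conventional arm, with 12 libraries, was not checked in this way.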

How the results depend on the processing

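For 99 results, 2617 values were computed under 29 settings: 2460 kept their direction and side of the threshold (counts stayed within 1.5 times), 75 lost and 11 gained the call, 40 counts moved and 31 changed sign, 0 of which were called in either setting. Unless a value shows otherwise, the cause of these changes was not tested. The alternative that leaves out 7 libraries and the one with the length trend were chosen after seeing the data.

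The pathway count of 3 differing between arms became 1 at the times having both replicates in both arms, 0 without the 7 libraries high in neighbouring tissue markers, 0 with the length covariate, and 1 to 3 with each library left out. The count of 1 at single times became 2 in DESeq2, 0 without the 7 libraries, which leaves no germ-free library at ZT22, and 0 to 2 with each library left out. The interaction count of 0 became 1 in DESeq2. The rhythm count of 1 in conventional fat became 0 when any difference between times was tested, 0 without the 7 libraries, and 0 to 1 with each library left out. That of germ-free fat became 0 with no filter, 0 for any difference between times, 0 without the 7 libraries, and 0 to 1 with each library left out.

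Signs changed for uncalled values. Arnt at ZT06 gave 0.000685 with RLE factors, 0.00073 with DESeq2 and 0.0604 without the 7 libraries. Cyp1b1 at ZT14 gave -0.000313 with RLE factors, -0.000166 with no filter, -0.000333 with DESeq2 and -0.0326 with the replicate block. Without the 7 libraries, Arnt between arms gave 0.0125, Kynu -0.00462 and Cyp1a1 at ZT10 0.159. With the length covariate, Arnt gave 0.0758, Ahrr 0.0841 and Epas1 0.0976. With each library left out, Nqo1 at ZT02 ranged from -0.159 to 0.0315, Arnt at ZT06 from -0.102 to 0.0774, Ahr at ZT10 from -0.0255 to 0.371, Ahrr at ZT10 from -0.499 to 0.315, Cyp1a1 at ZT10 from -3.04 to 0.153 and Tiparp at ZT10 from -0.0859 to 0.142. Ahrr at ZT14 ranged from -0.436 to 0.136, Cyp1b1 at ZT14 from -0.134 to 0.168 and Ahr at ZT22 from -0.0325 to 0.271.

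Over all genes, 2805 were higher and 2123 lower in germ-free fat. These became 539 and 1173 at the times having both replicates in both arms, 434 and 405 without the 7 libraries, and 137 and 66 with the length covariate. Counts of genes also differed between edgeR and DESeq2: 6 and 661 at ZT02, 7 and 391 at ZT06, 38 and 1111 at ZT10, 28 and 1379 at ZT18, 954 and 1996 at ZT22, 149 and 815 rhythmic in conventional and 850 and 2044 in germ-free fat.

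The replicate numbers gave no clear pairing of the samples. Of 36 pairs of groups, deviations of same-numbered libraries correlated above 0.1 in 20 and below -0.1 in 10. The median was 0.15, with a range from -0.59 to 0.60. These pairs share 9 groups and are not independent, so they cannot decide whether the numbers pair the samples. With the replicate block, 2 pathway genes were called in place of 3, Cyp1a1 (-2.19, adjusted p = 0.00845) and Cyp1b1 (-0.38, adjusted p = 0.0197), while Ahr was not (0.17, adjusted p = 0.0549). Depth limits Cyp1a1 and Ahrr, whose counts lay between 1 and 53 per library.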
